A study of Mus musculus with 11 samples.

Results

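The compact regions described here are short stretches of open chromatin that were called in every library of an ATAC-seq study of the mouse dentate gyrus. ATAC-seq reads accessible DNA from the places where a transposase inserts sequencing adapters, and peaks are stretches with many insertions. Each of the 11 deposited peak lists was shortened to the length of the shortest by keeping its highest-scoring peaks on chromosomes 1 to 19 and X, and peaks of all lists sharing at least 1 bp were merged into regions. A compact region had a peak in all 11 lists and a merged width under 1000 bp. The rule gave 1664 compact regions among 59298 regions in all (2.81%). They were 17.1% of the 9716 regions called in all 11 lists, and the other 8052, of 1000 bp or more, are called broad regions here. Compact regions were thus chosen by measured values, the peak calls, the score order and the merged width in these same libraries, so width, calls and levels are given as description, and tests were made only on differences between groups.

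At E1 there were 2 libraries of shRNA-cFos and 3 of shRNA-Ctrl, and at E0 3 of each. All mice were adult C57BL/6 at 8 weeks, and the dentate gyrus of each had been infected with an adeno-associated virus (AAV) carrying an shRNA against c-Fos or a control shRNA. The tissue was microdissected and each library came from 1 individual. The labels give the states only as E0, whose lists carry the word sham in their names, and E1, within a study of neuronal activation. The dissected tissue can hold every cell type of the dentate gyrus, infected or not, so a smaller share of cells with an open site and less opening per cell cannot be told apart. The lists show neither how far c-Fos was reduced nor which cells carried the virus.

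Chromatin that is open in every sample of a tissue is commonly found at promoters of broadly expressed genes and at sites bound by architectural proteins such as CTCF, while activity-regulated opening in neurons is more often found at enhancers. c-Fos is a subunit of AP-1, a transcription factor that is induced by neuronal activity and binds many such enhancers. The dentate gyrus holds the granule neurons of the hippocampus, among which few are active at a given time at rest. The peak coordinates are of build mm9 and no annotation or genome of that build was used here, so regions carry positions but no gene names or sequences, and the tissue was not checked against marker genes.

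The score of a peak was used only as a rank. The score percentile of a region in a library is the place of its best peak in the order of all kept scores, from 0 (lowest) to 100 (highest), and differences are given in percentile points. The deposited lists held 25215 to 78377 peaks, and read depth is unknown. The lowest score kept ran from 50 in the shortest list to 174.94 in one of the longest, so equal length does not mean an equal threshold. The 3 longest lists were shRNA-Ctrl E1 replicates 1 and 3 and shRNA-cFos E0 replicate 2. The deposited names of shRNA-Ctrl E1 replicates 1 and 3 also lack a word that the other 9 names carry. The rank tests of E1 against E0, in shRNA-Ctrl and averaged over both shRNAs, are therefore given with and without these 2 lists. The other tests and counts were not repeated without these 2 lists alone.

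Compact regions were small by the rule, which also leaves little room for more than 1 peak per library. Their merged width had a median of 859 bp (quartiles 773 and 934 bp, range 365 to 999 bp), against 1536.5 bp in broad regions. Together they covered 1407 kb, against 13612 kb in broad regions. In 1637 of the 1664 (98.4%) every library had exactly 1 peak, against 6992 broad regions (86.8%). In 1635 of those 1637 compact regions the peaks of all 11 libraries shared a common stretch, with a median length of 365 bp, or 43.7% of the merged width. Such a stretch was as common in broad regions, found in 6963 of those 6992 (99.6%). It was 607 bp long at the median, or 41.1% of their merged width.

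The peak edges of compact regions can move only within the width that the rule allows. The SD of the left edge over the 11 libraries was 71.4 bp at the median and that of the right edge 68.5 bp, against 132 and 130 bp in the wider broad regions. Peak length differed by library. The median peak in compact regions was 699 and 657.5 bp in shRNA-cFos E1, 570.5, 574 and 649 bp in shRNA-Ctrl E1, 591, 731 and 549 bp in shRNA-cFos E0, and 456, 544 and 611 bp in shRNA-Ctrl E0. The shortest list, shRNA-Ctrl E0 replicate 1, had the shortest peaks, but the longest list, shRNA-Ctrl E1 replicate 1, did not have the longest. The extremes were shRNA-cFos E0 replicate 2 and shRNA-Ctrl E0 replicate 1. In broad regions the same 2 libraries lay at the extremes, with 1285.5 and 817 bp. With the full deposited lists in place of the shortened ones, 1639 compact regions (98.5%) stayed under 1000 bp, 1633 had the same width, and the widest became 1995 bp.

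The width limit fell within a continuous distribution and marked no gap. The 2 compact regions just inside it, chr4:36257987-36258985 and chr4:130301170-130302168, were 999 bp wide, with mean score percentiles of 51.3 and 36.8. The 2 regions just outside it, chr7:4828265-4829264 and chr7:30906571-30907570, were 1000 bp wide, with mean percentiles of 77.5 and 40.4. Another 1172 regions under 1000 bp were called in 10 of the 11 lists. The missing list was shRNA-cFos E1 replicate 1 or 2 for 46 and 74 of them, and shRNA-Ctrl E1 replicate 1, 2 or 3 for 102, 147 and 42. It was shRNA-cFos E0 replicate 1, 2 or 3 for 67, 62 and 106, and shRNA-Ctrl E0 replicate 1, 2 or 3 for 193, 195 and 138. The near misses were thus most often missing from a list of shRNA-Ctrl E0, the group with the shortest deposited lists.

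Compact regions ranked lower than broad regions in every library. Their median score percentile lay at 64.9 and 65.2 in shRNA-cFos E1, at 65.7, 64.3 and 65.6 in shRNA-Ctrl E1, at 65.5, 66.4 and 66.2 in shRNA-cFos E0, and at 65.4, 67.0 and 64.2 in shRNA-Ctrl E0. Broad regions had medians of 79.6 to 83.0 in the same libraries. The share of compact regions at a percentile of 90 or more was 4.21% to 8.29% by library, against 27.6% to 30.2% of broad regions. The 3 shRNA-Ctrl E1 libraries had the 3 highest shares among compact regions, 8.29%, 7.27% and 6.19%. Both shRNA-cFos E1 libraries followed, at 5.95% and 5.77%, above all E0 libraries, which lay at 4.21% to 5.41%.

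**Figure D1:**
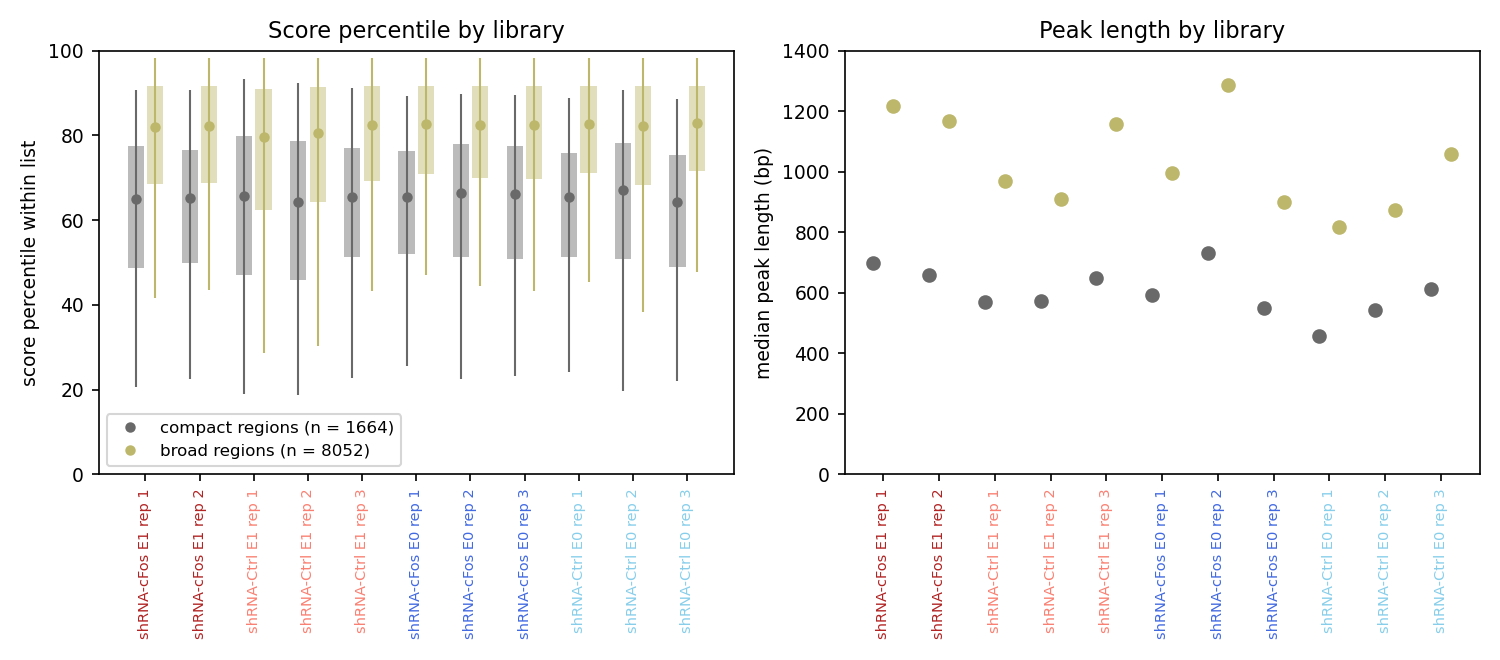
Left, score percentile (0 to 100) of compact and broad regions in each of the 11 libraries; points are medians, boxes quartiles and lines the 5th to 95th percentile. Right, median summed peak length in bp; compact medians lie at 64.2 to 67.0 percentile and 456 to 731 bp, below broad medians in every library.

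Averaged over the 11 libraries, the score percentile of compact regions had a median of 61.6 (quartiles 51.8 and 72.2), against 80.1 in broad regions. A mean under 50 was found for 356 compact regions (21.4%), against 431 broad regions (5.35%). Within the compact class wider regions ranked higher from 600 bp on, but the few narrower ones did not rank lowest. The median mean percentile was 85.9 for the 4 regions under 500 bp and 65.2 for the 23 of 500 to under 600 bp. It was 51.3 for the 146 regions of 600 to under 700 bp, 58.8 for the 358 of 700 to under 800 bp, 62.2 for the 523 of 800 to under 900 bp and 65.1 for the 610 of 900 bp or more. Spearman's rho between width and mean percentile was 0.24 over the 1664 compact regions and 0.33 over the 8052 broad ones. Regions share their libraries and a longer peak can hold more reads, so these are descriptions across regions, not over samples.

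A small group at the top of the order departed from this trend. Of the compact regions, 16 had a mean percentile of 99 or more, and only 6 lay between 95 and 99. The 16 were 512 to 996 bp wide with a median of 778.5 bp, which is below the 859 bp of all compact regions. Their peaks had a median length of 573 bp, against 1617 bp in the 169 broad regions at 99 or more. They lay on 11 chromosomes, and none fell below the 96.9th percentile in any library.

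The highest mean percentile of any compact region, 99.99, was at chr12:98299402-98300273 (872 bp). Its score stood at 3100, the highest value in the lists, in all 11 libraries, a value that only 4 to 7 peaks reached in each list. The region chr9:35112535-35113451 (917 bp) reached 3100 in 9 libraries and never fell under the 99.98th percentile. Next came chr12:3109603-3110330 (728 bp), chr6:103598849-103599467 (619 bp) and chr5:60433876-60434483 (608 bp), with mean percentiles of 99.98, 99.97 and 99.96. No filter for mapping artefacts was applied here, and whether such scores reflect open chromatin was not tested. These 5 regions ranked at the top of the lists of all 4 groups. Their distances to the nearest broad region were 984, 35.8, 124, 135 and 2722 kb in the same order.

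**Figure D2:**
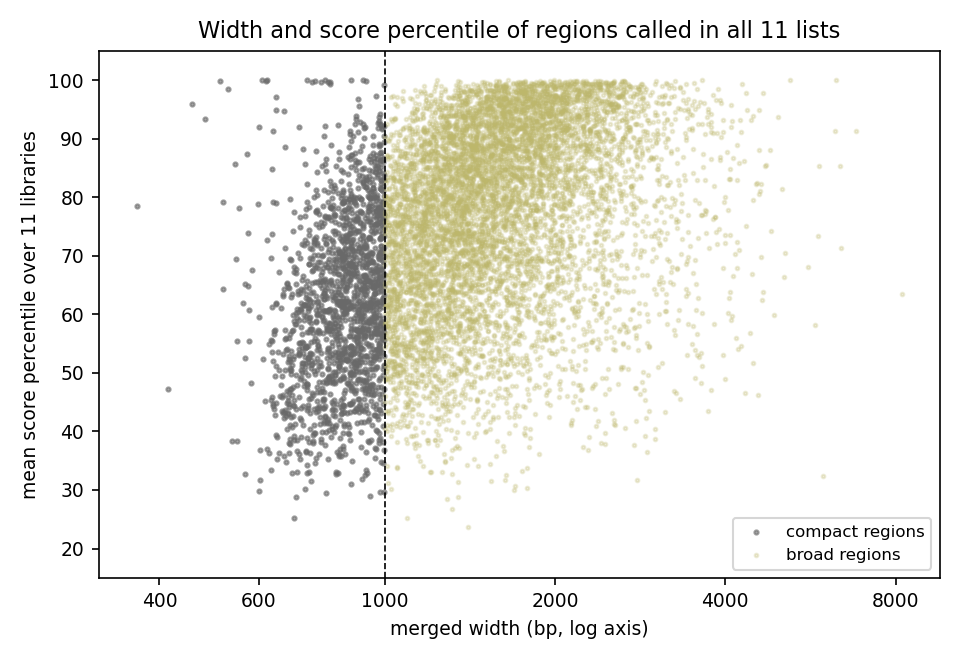
Mean score percentile over the 11 libraries against merged width (log axis) of each of the 1664 compact and 8052 broad regions; the dashed line is the limit of 1000 bp. From 600 bp on, the medians of the compact width bands climb from 51.3 to 65.1, the 27 narrower regions have higher ones, and the 16 compact regions at 99 or more form a separate row along the top.

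At the other end, chr3:19116133-19116825 (693 bp) had the lowest mean percentile, 25.1. It ranked at 28.0 and 11.1 in shRNA-cFos E1, 44.9, 18.4 and 7.35 in shRNA-Ctrl E1, 49.2, 11.4 and 18.9 in shRNA-cFos E0, and 35.2, 1.56 and 50.4 in shRNA-Ctrl E0. The groups overlapped, and the spread lay within them. The regions chr1:23293447-23294142 and chr3:40019129-40020071 followed, with means of 28.8 and 29.0.

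The narrowest compact regions were not the lowest ranked. The region chr9:123782031-123782395 (365 bp) had a mean percentile of 78.5 and chr13:77578072-77578527 (456 bp) one of 96.0, while chr16:5709047-5709461 (415 bp) had 47.2. The 365 bp region ranked at 88.2 and 96.1 in shRNA-cFos E1, 5.96, 87.6 and 67.7 in shRNA-Ctrl E1, 92.9, 60.4 and 95.9 in shRNA-cFos E0, and 93.5, 85.4 and 90.1 in shRNA-Ctrl E0. It was low in 1 library, shRNA-Ctrl E1 replicate 1, and above 60 in the other 10.

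Calls in all libraries did not mean a stable rank. The SD of the percentile over the 11 libraries was 14.4 points at the median of compact regions, against 7.10 in broad regions. The distance between the highest and the lowest library was 46.4 points at the median, against 23.0, and exceeded 50 points in 723 compact regions (43.4%), against 1310 broad regions (16.3%). At like rank the classes were closer, though the median SD of compact regions was the higher in every band from a mean percentile of 40 up. Between mean percentiles of 60 and 70 the median SD was 14.0 points in compact and 13.3 points in broad regions. Between 90 and 100 it was 3.10 and 2.09 points. The smallest SDs belonged to 3 of the regions at the top of the order, on chromosomes 12, 9 and 12.

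The largest SDs over the libraries, 32.7, 31.8 and 30.5 points, were at chr10:105126209-105126918, chrX:36786754-36787749 and chr8:61283815-61284528. The chromosome 10 and X regions are described with the E1 differences. The chromosome 8 region ranked at 47.0 and 57.6 in shRNA-cFos E1, 90.2, 71.8 and 75.2 in shRNA-Ctrl E1, 30.7, 10.7 and 1.10 in shRNA-cFos E0, and 80.2, 26.9 and 78.1 in shRNA-Ctrl E0. Under shRNA-cFos both E1 libraries lay above all 3 E0 libraries, and under shRNA-Ctrl the states overlapped.

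Compact regions were spread over all 20 chromosomes. They made up from 13.7% of the regions called in all 11 lists on chromosome 6 to 22.5% on chromosome 5, and 18.4% on chromosome X. They lay farther from broad regions than broad regions lay from each other. The median distance to the nearest broad region was 94.5 kb (quartiles 36.1 and 235 kb), against 62.0 kb from a broad region to the nearest other broad region. Within 10 kb of a broad region lay 91 compact regions (5.47%) and 8.02% of broad ones, and 807 compact regions (48.5%) lay more than 100 kb away, against 34.6%. The distance was like that of other regions outside the broad class, 92.2 kb for the 1172 compact regions called in 10 lists and 103.6 kb for the 19491 regions called in only 1 list. From a compact region to the next one the median distance was 406.5 kb, against 433.9 kb from a broad region to the nearest compact one. It was 476.3 kb from the compact regions called in 10 lists and 522.2 kb from the regions called in only 1 list.

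**Figure D3:**
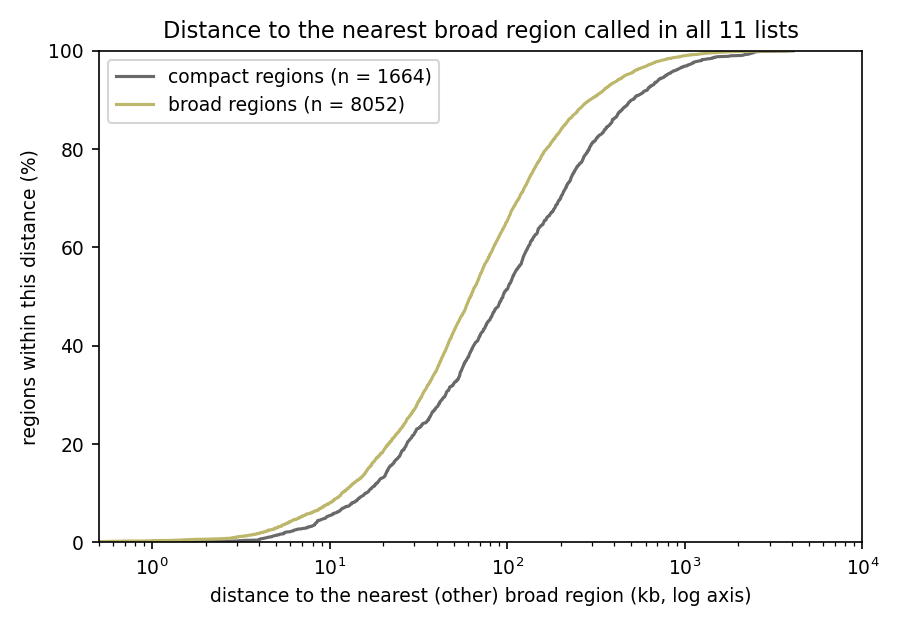
Cumulative share of regions (%) against the distance in kb (log axis) to the nearest broad region, for 1664 compact regions and for 8052 broad regions to their nearest other broad region. The compact curve lies to the right, with medians of 94.5 and 62.0 kb.

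The comparison of E1 with E0 asks whether activation shifts the rank of chromatin that is open in every library. Averaged over both shRNAs, 56 compact regions changed, 45 higher and 11 lower at E1 (limma across all 9716 regions called in all lists, 4 group means over 11 libraries, Benjamini-Hochberg adjusted p under 0.05). They were 3.37% of compact regions, where the background over all 9716 was 1.82%. By direction, 2.70% of compact regions were higher, with a background of 1.29%, and 0.661% lower, with a background of 0.535%. The median difference was -0.89 percentile points over compact regions and -0.90 over all 9716. The median size of the difference without its sign was 8.42 points over compact regions and 3.99 over all. Set beside broad regions of like mean percentile, the share that changed differed by band. It was 1.56% of compact and 1.74% of broad regions between 40 and 50, 2.74% and 2.06% between 50 and 60, and 4.57% and 2.19% between 60 and 70. Between 70 and 80 it was 3.62% and 1.80%, between 80 and 90 6.82% and 1.53%, and between 90 and 100 1.82% and 0.671%.

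The direction of these calls depended on the libraries. Without shRNA-Ctrl E1 replicates 1 and 3, the 2 lists named without the added word, 1 library was left in that group and was assumed to vary like the others, and 61 compact regions passed, 12 higher and 49 lower at E1, of which 23 were among the 56. Without the 3 longest lists 31 passed, 5 higher and 26 lower, and 10 of them were among the 56. Without 1 library the count was 0 (shRNA-cFos E1 replicate 1), 3 (shRNA-cFos E1 replicate 2), 7 (shRNA-Ctrl E1 replicate 1), 23 (shRNA-Ctrl E1 replicate 2), 33 (shRNA-cFos E0 replicate 3) or 37 (shRNA-Ctrl E0 replicate 3), and 39 to 55 without any other. All 56 kept the sign of their difference in every one of these fits, which their choice by a passing difference in the same libraries favours. None of the 56 passed in all 11 fits that left out 1 library.

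The 45 higher regions were spread over 15 chromosomes, with 8 on chromosome 10 and 6 on chromosome 5. Their differences ran from 10.1 to 51.0 points with a median of 31.9. Their median percentile by library lay at 87.2 and 83.8 in shRNA-cFos E1 and at 92.7, 89.9 and 86.1 in shRNA-Ctrl E1, against 62.2, 55.0 and 55.4 in shRNA-cFos E0 and 61.5, 59.1 and 57.4 in shRNA-Ctrl E0. All 5 E1 medians lay above all 6 E0 medians, as the choice of the regions fixes. At E0 their median lay below that of the compact class in all 6 libraries, which the choice of the regions favours. The compact medians lay at 64.2 to 67.0. Of the 45, 30 lay more than 100 kb from a broad region and 2 within 10 kb, where the shares of all compact regions were 48.5% and 5.47%. The median distance was 190 kb, against 94.5 kb for all compact regions.

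The largest rise was at chr10:105126209-105126918 (710 bp). It ranked at 74.2 and 74.5 in shRNA-cFos E1 and 87.4, 96.8 and 86.3 in shRNA-Ctrl E1, against 44.6, 27.3 and 11.9 in shRNA-cFos E0 and 9.86, 72.3 and 21.4 in shRNA-Ctrl E0. Every E1 library lay above every E0 library, though shRNA-Ctrl E0 replicate 2 came within 2 points of the lowest E1 library. The averaged difference was 51.0 points (SE 10.5, limma adjusted p = 0.0193), and the adjusted p rose to 0.101 with 1 library left out.

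The region chrX:36786754-36787749 (996 bp) ranked at 89.5 and 90.8 in shRNA-cFos E1 and 97.0, 97.3 and 93.0 in shRNA-Ctrl E1, against 65.1, 6.80 and 39.8 in shRNA-cFos E0 and 81.0, 49.7 and 26.3 in shRNA-Ctrl E0. The E1 libraries were all near the top, and the E0 libraries were scattered below them. The difference was 48.2 points (SE 9.81, limma adjusted p = 0.0176; highest adjusted p with 1 library left out 0.0945).

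The region chr6:23693269-23694161 (893 bp) separated the states more evenly. It ranked at 66.1 and 79.2 in shRNA-cFos E1 and 93.0, 68.9 and 84.0 in shRNA-Ctrl E1, against 33.5, 25.2 and 29.9 in shRNA-cFos E0 and 33.6, 12.4 and 46.0 in shRNA-Ctrl E0. The lowest E1 library lay 20 points above the highest E0 library. The difference was 47.2 points (SE 8.99, limma adjusted p = 0.0128; highest with 1 library left out 0.0897).

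At chr12:40016106-40016766 (661 bp) the percentiles were 85.8 and 60.6 in shRNA-cFos E1 and 85.6, 88.7 and 72.2 in shRNA-Ctrl E1, against 18.4, 44.0 and 24.1 in shRNA-cFos E0 and 51.1, 42.1 and 12.8 in shRNA-Ctrl E0. The states did not overlap. The difference was 45.6 points (SE 9.56, limma adjusted p = 0.0205; highest with 1 library left out 0.152). Without the 3 longest lists, none of these 4 regions passed, with adjusted p from 0.0527 to 0.103 in limma and differences of 39.6 to 54.2 points. Without shRNA-Ctrl E1 replicates 1 and 3, the chromosome 10 and 12 regions passed (limma adjusted p = 0.0467 and 0.0434) and the chromosome X and 6 regions did not (limma adjusted p = 0.0558 and 0.0671).

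The 11 lower regions lay on 8 chromosomes, with differences of 24.7 to 47.9 points downward and a median of -39.6. Their median percentile by library was 35.5 and 42.3 in shRNA-cFos E1 and 41.6, 26.7 and 57.5 in shRNA-Ctrl E1, against 76.8, 78.6 and 74.3 in shRNA-cFos E0 and 74.4, 77.0 and 78.8 in shRNA-Ctrl E0. These regions ranked above the compact median at E0 in all 6 libraries and below it at E1 in all 5, a separation that their choice fixes. Their median distance to a broad region was 250 kb, against 94.5 kb for all compact regions. Of the 11, 7 lay more than 100 kb from a broad region and 0 within 10 kb. Among all compact regions these shares were 48.5% and 5.47%, and 11 regions are too few to compare.

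The largest fall was at chr5:4485799-4486754 (956 bp). It ranked at 8.13 and 51.8 in shRNA-cFos E1 and 32.1, 12.6 and 64.7 in shRNA-Ctrl E1, against 77.5, 78.6 and 81.5 in shRNA-cFos E0 and 78.1, 92.0 and 78.8 in shRNA-Ctrl E0. The 6 E0 libraries were close together and the 5 E1 libraries scattered below them. The difference was -47.9 points (SE 9.81, limma adjusted p = 0.0176), and it passed without the 3 longest lists too (-60.0 points, limma adjusted p = 0.0207). With 1 library left out the highest adjusted p was 0.130.

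The region chr14:106575946-106576646 (701 bp) had the smallest spread of these. It ranked at 29.9 and 20.6 in shRNA-cFos E1 and 47.0, 46.2 and 56.4 in shRNA-Ctrl E1, against 83.6, 78.9 and 65.5 in shRNA-cFos E0 and 83.6, 77.0 and 81.0 in shRNA-Ctrl E0. The states did not overlap, and shRNA-cFos E1 lay below shRNA-Ctrl E1. The difference was -40.7 points (SE 7.18, limma adjusted p = 0.00892). Without the 3 longest lists it was -41.8 points (limma adjusted p = 0.0301), and the highest adjusted p with 1 library left out was 0.0535, the lowest such value among the 56.

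Similar falls were found at chr12:51453308-51454037 (730 bp) and chr6:137117696-137118640 (945 bp). The chromosome 12 region ranked at 13.7 and 26.9 in shRNA-cFos E1 and 36.5, 26.7 and 28.3 in shRNA-Ctrl E1, against 66.5, 81.6 and 62.2 in shRNA-cFos E0 and 65.5, 53.6 and 67.2 in shRNA-Ctrl E0. Its states were apart in both shRNA groups (difference -40.7 points, SE 8.73, limma adjusted p = 0.0234). The chromosome 6 region ranked at 3.24 and 22.8 in shRNA-cFos E1 and 17.0, 4.55 and 37.0 in shRNA-Ctrl E1, against 59.5, 30.9 and 40.7 in shRNA-cFos E0 and 68.6, 67.8 and 71.8 in shRNA-Ctrl E0. Over all libraries its states overlapped, since shRNA-Ctrl E1 replicate 3 lay above shRNA-cFos E0 replicate 2 (difference -40.3 points, SE 10.2, limma adjusted p = 0.0488). Without the 3 longest lists neither region passed (limma adjusted p = 0.0766 and 0.0506). Without shRNA-Ctrl E1 replicates 1 and 3 all 4 of these falls passed, with limma adjusted p from 0.00713 to 0.0421.

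**Figure D4:**
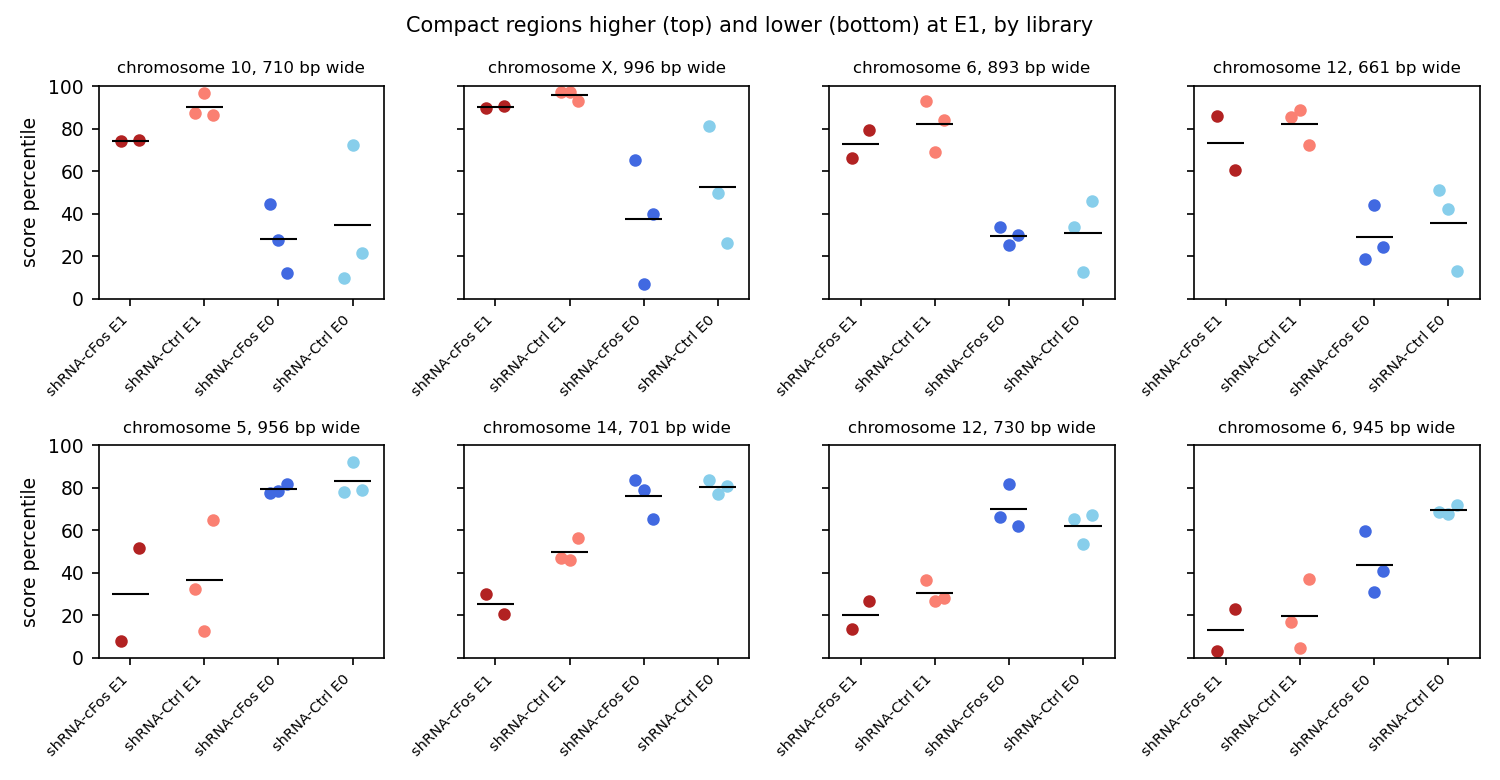
Score percentile (0 to 100) of the 4 compact regions with the largest rise (top) and the 4 with the largest fall (bottom) at E1 in each library; points are libraries and lines group means (n = 2 in shRNA-cFos E1, 3 in the other groups). In the chromosome 14 panel the 5 E1 libraries lie at 20.6 to 56.4, below the 6 E0 libraries at 65.5 to 83.6.

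Counted by libraries alone, 60 compact regions (3.61%) had all 5 E1 libraries above all 6 E0 libraries, where the background over the 9716 regions was 1.84%. The opposite was found for 24 compact regions (1.44%), where the background was 1.53%. Of these, 34 and 9 also had an adjusted p under 0.05 in the limma fit. The 571 regions that every E1 list and no E0 list contained lay far from most compact regions. The median distance was 1280 kb for the 45 higher and 3331 kb for the 11 lower regions, against 1836 kb for all compact and 1735 kb for broad regions. Within 10 kb lay 9 of the 1664 compact regions (0.541%) and none of the 56, a number too small to compare.

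Within shRNA-Ctrl alone, 21 compact regions changed, 19 higher and 2 lower at E1 (limma adjusted p under 0.05). That is 1.26% of compact regions, where the background was 0.69%, and by direction 0.545% higher and 0.144% lower. The median difference was -0.40 points over compact regions and -1.26 over all 9716. Of the 21, 15 were also among the 56. Without shRNA-Ctrl E1 replicates 1 and 3, which leaves 1 E1 library assumed to vary like the other groups, 34 passed, 4 higher and 30 lower, of which 5 were among the 21. Without 1 library the count was 0 (shRNA-Ctrl E1 replicate 1), 2 (either shRNA-cFos E1 library), 5 (shRNA-Ctrl E1 replicate 2), 9 (shRNA-Ctrl E0 replicate 3) or 10 (shRNA-cFos E0 replicate 1), and 14 to 26 without any other.

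The strongest call was at chr13:82098060-82098972 (913 bp), which ranked at 94.0, 92.8 and 85.4 in shRNA-Ctrl E1, against 30.4, 31.4 and 30.5 in shRNA-Ctrl E0. The shRNA-Ctrl libraries of each state were close together and far from the other state (59.9 points, SE 8.60, limma adjusted p = 0.00555, and under 0.05 in 10 of 11 fits with 1 library left out). Under shRNA-cFos the same region ranked at 73.6 and 78.8 at E1, against 57.0, 81.0 and 76.6 at E0, where the states overlapped. The E1 difference under shRNA-cFos minus that under shRNA-Ctrl was -55.3 points and did not pass (SE 12.9, limma adjusted p = 0.924). At E0, shRNA-cFos minus shRNA-Ctrl was 40.8 points, which did not pass either (SE 8.60, limma adjusted p = 0.310).

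The other rises in shRNA-Ctrl that the rule named were smaller or more scattered. The region chr10:28369368-28370186 ranked at 93.7, 87.8 and 83.3 in shRNA-Ctrl E1, against 63.1, 16.0 and 26.3 in shRNA-Ctrl E0 (53.1 points, SE 11.8, limma adjusted p = 0.0441). Under shRNA-cFos it ranked at 76.1 and 58.6 at E1, against 41.2, 50.1 and 48.1 at E0, apart in the same direction. Its call in shRNA-Ctrl was kept in 1 of the 11 fits with 1 library left out. The region chr12:50937052-50937929 ranked at 76.7, 71.0 and 67.0 in shRNA-Ctrl E1, against 10.4, 19.6 and 28.4 in shRNA-Ctrl E0 (52.1 points, SE 11.4, limma adjusted p = 0.0422). The shRNA-cFos E0 libraries ranked this region at 59.8, 83.9 and 53.7, so low ranks were seen in shRNA-Ctrl E0 and in no other group. In shRNA-cFos E1 it ranked at 84.7 and 63.9, so the states overlapped under shRNA-cFos. Its call in shRNA-Ctrl was kept in 2 of the 11 fits with 1 library left out. The region chr2:110805331-110806299 ranked at 81.1, 89.9 and 82.8 in shRNA-Ctrl E1, against 40.0, 24.3 and 43.2 in shRNA-Ctrl E0 (48.8 points, SE 9.39, limma adjusted p = 0.0243). Under shRNA-cFos it ranked at 84.7 and 84.4 at E1, against 77.3, 49.5 and 81.7 at E0, apart in the same direction. Its call in shRNA-Ctrl was kept in 7 of the 11 fits with 1 library left out.

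Of the 2 falls in shRNA-Ctrl, chr2:181572241-181573001 (761 bp) ranked at 5.15, 5.34 and 29.7 in shRNA-Ctrl E1, against 77.3, 63.4 and 80.2 in shRNA-Ctrl E0 (-60.2 points, SE 12.2, limma adjusted p = 0.0276). Under shRNA-cFos it ranked at 35.5 and 42.7 at E1, against 54.8, 52.7 and 66.7 at E0, a gap in the same direction. Its call in shRNA-Ctrl was kept in 5 of the 11 fits with 1 library left out. The region chr12:7222255-7223178 (924 bp) ranked at 11.8, 29.1 and 13.8 in shRNA-Ctrl E1, against 58.1, 80.9 and 65.6 in shRNA-Ctrl E0 (-50.0 points, SE 11.5, limma adjusted p = 0.0498). Its call was lost in every fit that left out 1 library. Under shRNA-cFos this region ranked at 54.0 and 59.4 at E1, against 83.0, 64.0 and 62.4 at E0, also apart in the same direction. Without shRNA-Ctrl E1 replicates 1 and 3, chr13:82098060-82098972 and chr2:181572241-181573001 passed (limma adjusted p = 0.0193 and 0.0265), and the other 4 regions named for shRNA-Ctrl did not (limma adjusted p from 0.0512 to 0.153).

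Within shRNA-cFos alone no compact region passed at E1 against E0 in limma, where the background was 0.0%, and the smallest adjusted p was 0.114. At an unadjusted p under 0.05 there were 184 compact regions (11.1%), against 7.81% of all 9716. Alternative settings of the limma test called 0 or 1. The largest differences that did not pass were at chr13:19119544-19120334 and chr3:50620198-50620963. The chromosome 13 region ranked at 68.0 and 77.6 in shRNA-cFos E1, against 2.03, 9.52 and 25.7 in shRNA-cFos E0 (60.4 points, SE 14.4, limma adjusted p = 0.227). The chromosome 3 region ranked at 0.0696 and 9.17 in shRNA-cFos E1, against 67.8, 72.3 and 54.0 in shRNA-cFos E0 (-60.1 points, SE 16.1, limma adjusted p = 0.245). In both regions the states lay apart under shRNA-cFos and overlapped under shRNA-Ctrl. This group has 2 E1 libraries, and the standard error of a difference was 12.4 points at the median of compact regions, against 11.1 in shRNA-Ctrl.

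The 2 shRNA groups share no library in these comparisons. The E1 difference had the same sign under both shRNAs in 1042 of the 1664 compact regions (62.6%), against 58.7% of broad regions. Spearman's rho between the 2 differences was 0.41 over compact and 0.27 over broad regions, as a description across regions. All 56 regions called over both shRNAs had the same sign under each, which their choice by the average favours. The median difference of the 45 higher regions was 29.5 points under shRNA-cFos and 33.1 under shRNA-Ctrl, and that of the 11 lower regions was -35.2 and -30.7.

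**Figure D5:**
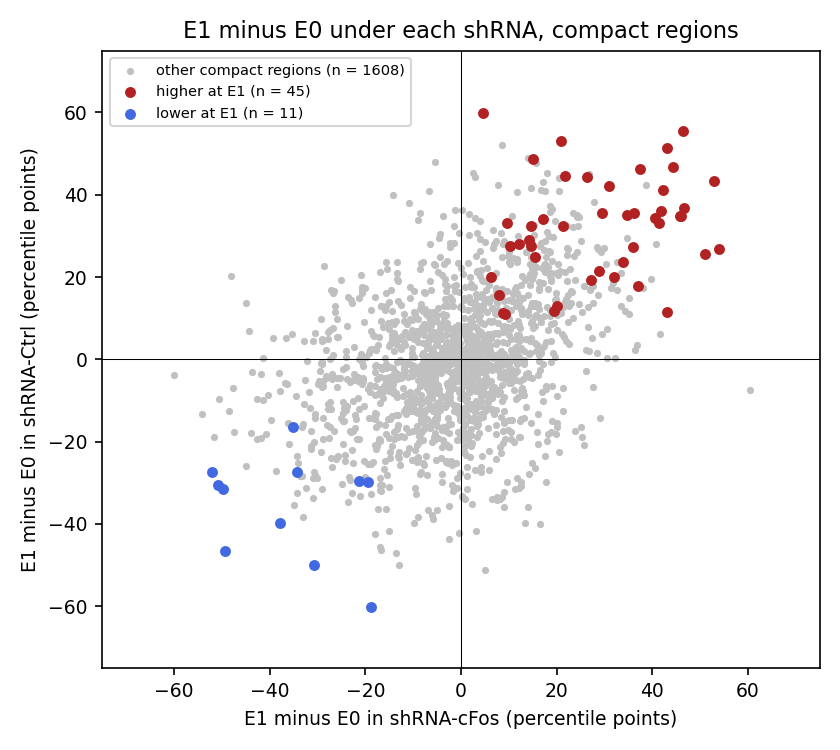
E1 minus E0 difference in score percentile points under shRNA-cFos (horizontal) and under shRNA-Ctrl (vertical) for each compact region; red and blue points are the 45 higher and 11 lower regions of the averaged comparison. The median size of the difference over compact regions is 8.96 points under shRNA-cFos and 10.5 under shRNA-Ctrl, and the coloured points lie in the quadrants of equal sign.

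Whether the E1 difference depended on the c-Fos shRNA was tested as the difference of the differences. No compact region passed in limma, where the background was 0.0%, and the smallest adjusted p was 0.924. At an unadjusted p under 0.05 there were 90 compact regions (5.41%), against 5.04% of all 9716, and every alternative tried also called 0. The largest values were 67.8 points (SE 19.3) at the chromosome 13 region just described and -68.5 points (SE 24.2) at chr12:44062310-44063041 (limma adjusted p = 0.924 for both). The chromosome 12 region ranked at 36.1 and 0.398 in shRNA-cFos E1, 68.0, 25.3 and 64.5 in shRNA-Ctrl E1, 50.9, 64.1 and 84.2 in shRNA-cFos E0, and 21.8, 63.2 and 11.7 in shRNA-Ctrl E0. Its libraries were scattered within every group, and the standard error of such a difference of differences was 16.7 points at the median of compact regions.

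Set side by side within a state, shRNA-cFos and shRNA-Ctrl did not differ at any compact region past the test. At E1 none passed in limma (background 0.0%), with a smallest adjusted p of 0.641 and 103 compact regions (6.19%) at an unadjusted p under 0.05, against 6.73% of all 9716. Every alternative tried for E1 also called 0. At E0 none passed (background 0.0%), with a smallest adjusted p of 0.310 and 127 compact regions (7.63%) at an unadjusted p under 0.05, against 6.73% of all, and alternatives called 0 or 1. The medians of the differences were -0.19 points at E1 and 0.46 points at E0.

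The largest differences between shRNAs at E1 were at chr15:98507609-98508239 and chr4:34469895-34470628. The chromosome 15 region ranked at 63.4 and 64.3 in shRNA-cFos E1, against 9.25, 17.0 and 35.2 in shRNA-Ctrl E1 (43.4 points, SE 15.4, limma adjusted p = 0.681). The chromosome 4 region ranked at 45.8 and 7.72 in shRNA-cFos E1, against 74.0, 71.6 and 85.9 in shRNA-Ctrl E1 (-50.4 points, SE 13.2, limma adjusted p = 0.641). In both, the 2 groups did not overlap, yet the differences did not pass.

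At E0 they were at chr10:73549206-73550003 and chr1:109377921-109378522. The chromosome 10 region ranked at 65.3, 74.9 and 73.6 in shRNA-cFos E0, against 25.6, 3.28 and 39.6 in shRNA-Ctrl E0 (48.5 points, SE 11.7, limma adjusted p = 0.397). The chromosome 1 region ranked at 10.2, 36.9 and 7.29 in shRNA-cFos E0, against 54.2, 72.5 and 73.8 in shRNA-Ctrl E0 (-48.7 points, SE 15.3, limma adjusted p = 0.531). Here too the groups lay apart without passing.

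Peak length gave a readout that the score order did not use, although the merged width bounds it. Lengths were compared on the log2 scale after centring each library on its median. No compact region passed for E1 against E0 averaged over both shRNAs in limma, where the background was 0.535% (0.453% longer and 0.0823% shorter), with a smallest adjusted p of 0.0923 and 123 compact regions (7.39%) at an unadjusted p under 0.05, against 10.9% of all 9716. Every alternative tried also called 0. All 52 calls among the 9716 regions were thus broad regions. A region whose peak reaches 1000 bp in any library is broad by the rule. The split of the length calls between the classes is thus partly set by the rule, and no comparison of the classes is drawn from it. The largest values in compact regions were at chr5:13667297-13668170 and chrX:139917391-139917919. The chromosome 5 peak was 806 and 688 bp long in shRNA-cFos E1 and 710, 767 and 670 bp in shRNA-Ctrl E1, against 550, 472 and 396 bp in shRNA-cFos E0 and 379, 301 and 512 bp in shRNA-Ctrl E0. Every E1 peak was longer than every E0 peak, but the log2 difference of 0.61 (SE 0.16) did not pass (limma adjusted p = 0.130).

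The chromosome X peak was 246 and 221 bp in shRNA-cFos E1 and 177, 244 and 203 bp in shRNA-Ctrl E1, against 479, 199 and 328 bp in shRNA-cFos E0 and 199, 347 and 440 bp in shRNA-Ctrl E0. The states overlapped (log2 difference -0.69, SE 0.28, limma adjusted p = 0.382), and its rank stayed between 96.7 and 99.8 in all libraries. In the 45 regions higher at E1 by rank, the median log2 length difference was 0.20, and 39 were longer. In the 11 lower regions it was -0.28 and none was longer. Over all compact regions it was -0.03. Rank and length come from the same peaks, so this is a description of how they moved together.

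For shRNA-cFos against shRNA-Ctrl averaged over both states, no compact region passed by length in limma (background 0.0%), with a smallest adjusted p of 0.607 and 66 compact regions (3.97%) at an unadjusted p under 0.05, against 6.53% of all 9716. Every alternative tried also called 0. The largest shortening was at chr2:46249445-46250294, where the peak was 416 and 585 bp in shRNA-cFos E1, against 773, 765 and 518 bp in shRNA-Ctrl E1, and 341, 677 and 426 bp in shRNA-cFos E0, against 413, 593 and 724 bp in shRNA-Ctrl E0. The shRNA groups overlapped in both states (log2 difference -0.60, SE 0.20, limma adjusted p = 0.696).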

How the data were processed

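ATAC-seq peaks of 11 libraries were used as the authors deposited them, 1 list per library with a chromosome, start, end, name and score per peak. Per the submitters' processing notes, reads were aligned with Bowtie2 to mm9, and peaks are named after the caller MACS. Filters, transposase shift and calling settings are not given in the sources used here. No header states the scale of the deposited score, so it served only as a rank within lists of equal length. Read depth is unknown, and longer lists can come from deeper sequencing.

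Groups follow the sample titles, and p-values measure the spread between individual mice. Percentiles and log2 peak lengths of the 9716 regions called in all lists were fitted with limma 3.58.1 in R 4.3.3 (4 group means, moderated with trend and robust settings, two-sided, Benjamini-Hochberg over 9716). The rest was done in Python 3.11.15 (pandas 2.3.3, numpy 2.4.6, scipy 1.17.1), with figures in matplotlib 3.10.9. Both steps were tested on simulated data. The compact class, lists and tests were chosen with earlier results of these data known.

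Regions named by position are the 5 highest and 3 lowest by mean percentile, the 3 narrowest, 2 on each side of the width limit, the 3 with the smallest and largest SD, and per contrast up to 4 changed regions a direction by size (2 for length), or else the largest that did not pass; 1 length region is not named in the text. Sequence and distance to genes, planned for an mm9 genome, were not analysed here. Alternatives covered list length, score minimum, merging, coverage, chromosomes, score summaries, variance settings, a replicate block, and each library left out. Positions are 1-based.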

Additional observations from a re-analysis of the deposited data

Results flagged for a closer look

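Chromosome Y was outside the rule and its peaks entered no comparison. It held 4 regions under 1000 bp that were called in all 11 lists, of 80 regions on that chromosome. They lay at chrY:581728-582537, chrY:622631-623372, chrY:2604069-2604906 and chrY:2651964-2652459 and were 496 to 838 bp wide. They were noted because peaks there stand in data that no comparison used.

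In 16 compact regions (0.962%) the E1 libraries lay entirely above the E0 libraries under one shRNA and entirely below them under the other. The share among broad regions was 0.956% (77 regions), and 144 compact regions (8.65%) and 406 broad regions (5.04%) were apart in the same direction under both shRNAs. They were noted because the separation ran in opposite directions. The test of the difference of the E1 effects in single regions called 0 of 1664 compact regions in limma.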

How the results depend on the processing

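The number of compact regions was 2575 with all deposited peaks, 730 with a score of at least 100 and 748 where peaks had to cover 50% of a region, and stayed within 1.5 times otherwise (1118 with 20000 peaks a list, 1646 with peaks within 200 bp merged, 1662 with all chromosomes). Leaving out 1 library gave 1772 to 2133, since fewer lists then have to call a region. For E1 against E0 in shRNA-Ctrl, the 21 calls became 54 with normal scores, 7 with the mean peak score, 79 with ranks among the 9716 regions, 11 with plain variance settings (5 higher and 6 lower), 34 without the 2 lists named without the added word, and 0 to 26 without 1 library. In shRNA-cFos, 1 region passed with normal scores, with ranks among the 9716 regions and with plain variance settings, and 0 to 1 without 1 library. Averaged over both shRNAs, the 56 calls became 86 with normal scores, 110 with ranks among the 9716 regions, 37 with 20000 peaks a list, 31 without the 3 longest lists and 0 to 55 without 1 library. Plain variance settings gave 41 (25 higher and 16 lower). Leaving out 1 library gave 0 to 1 for shRNA-cFos against shRNA-Ctrl at E0, and 0 to 0 for E1, for the difference of E1 effects and for both length comparisons. Except where fewer peaks or libraries enter by construction, the cause was not tested.

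Deviations from the group means correlated at -0.071 to 0.166 between samples with the same replicate number. The highest value was between shRNA-Ctrl E0 and shRNA-Ctrl E1 replicate 3. Samples with different numbers were not set beside them, so whether the number marks a shared batch was not tested. With the number as a replicate block, 12 compact regions passed in shRNA-Ctrl and 39 averaged over both shRNAs.

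Over the 26 differences of named regions, 437 alternative values gave 336 on the same side of the threshold, 101 that lost it and none of opposite sign. All 101 losses fell on the 14 differences that had passed, where 148 of 249 alternative values kept the call. The other differences had not passed to begin with. Leaving out the 3 longest lists and the 2 lists named without the added word was chosen after seeing the data. Since the score is a rank against a threshold that differs between lists, a region can change percentile when other peaks change.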
